A study of Drosophila melanogaster with 3 samples.

Results

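Broad regions are consensus regions of anti-HA CUT&Tag signal that were 450 bp or more wide, and 611 of 5768 consensus regions (10.6%) met that width. A region joins all peaks that share 1 bp or more on the arms of chromosomes 2 and 3 and on 4, X and Y, and it is a consensus region when every one of the 3 libraries contributed a peak. Its width is the distance from its lowest start to its highest end, and the other 5157 consensus regions are called narrower. Wing discs, which give rise to the wing and the notum of the adult fly, were taken from Drosophila melanogaster larvae in the last instar, raised at 25 °C, and their cells were dissociated at 37 °C. All 3 libraries form 1 group of genotype nub>GFP;UAS-BunA-HA, in which nub-Gal4 switches on GFP and an HA-tagged BunA in the wing pouch, so that a disc also held cells outside the domain of the driver. They are numbered 1 to 3 here in accession order, and their titles carry 2, 3 and 4. Discs without the tag and other antibodies were not analysed here, so signal at tagged BunA and signal of open chromatin cannot be told apart. Separate crosses are not stated for the libraries, and an SD between them may reflect technical spread alone.

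BunA is the long isoform of bunched (bun), the fly member of the TSC22 family of leucine zipper proteins, and it promotes tissue growth together with its partner Madm. CUT&Tag cuts and tags DNA beside an antibody with a tethered transposase, and a peak caller then sets the edges of each peak where the signal passes its threshold. A region can be broad because 1 long peak covers it or because several peaks adjoin. The lists held 9268, 9005 and 9225 peaks in replicates 1 to 3, of which 8270, 8118 and 8273 lay on the main chromosomes. The lists give no read counts, so the sequencing depth is unknown.

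In most broad regions each library had a single peak. Their widths ran from 450 to 1475 bp with a median of 543 bp and quartiles of 490 and 632 bp. In 426 of the 611 (69.7%) each library had exactly 1 peak, in 7 (1.15%) every library had 2 or more, and the other 178 (29.1%) were mixed. Without replicate 2 the share with 2 or more peaks in every library was 0.577%. Among narrower regions 5067 of 5157 (98.3%) had 1 peak in every library. The broad regions covered 356 kb, 22.5% of all the sequence in consensus regions. Since width chose them, these values and all folds of the same libraries are a description and carry no test.

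The width was present within single libraries for most of the 611. The distance from the first to the last peak edge inside 1 library was 450 bp or more at 424, 456 and 439 regions in replicates 1, 2 and 3, a mean of 72.0% ± 2.62 (SD, n = 3). In 320 regions (52.4%) all 3 libraries reached 450 bp alone, in 119 2 did, in 121 only 1 did, and in 51 none did, so that there the width came from offsets between libraries. Left edges of the libraries lay 34 bp apart and right edges 38 bp apart at the median, where the figures for narrower regions were 26 and 25 bp. Bases covered by all 3 libraries made up 77.2% of a broad region at the median, against 71.9% of a narrower one. In 4 broad regions no base was covered by all 3 libraries. The position of the strongest summit differed between libraries by 54 bp at the median, against 33 bp in narrower regions.

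Libraries that had taken no part in choosing a region showed the same difference in width. Regions were defined from 2 libraries at a time and read in the library left out. In replicates 1, 2 and 3 the median widest peak was 472.5, 486 and 483 bp at regions broad in the other 2 libraries, and 177, 185 and 186 bp at regions narrower in them. The mean difference was 298 ± 2.84 bp (SD, n = 3), with a 2-sided exact sign-flip permutation p of 0.25, the smallest that 3 libraries can give. A peak was present in the library left out at 99.8% ± 0.195 of the broad and 89.5% ± 1.05 of the narrower regions, and the median fold enrichment was 10.3 ± 0.195 and 8.04 ± 0.322 (exact permutation p = 0.25 for each). All of these differences were higher for broad regions in 3 of 3 libraries. The 3 readings share libraries and are not independent.

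**Figure D1:**
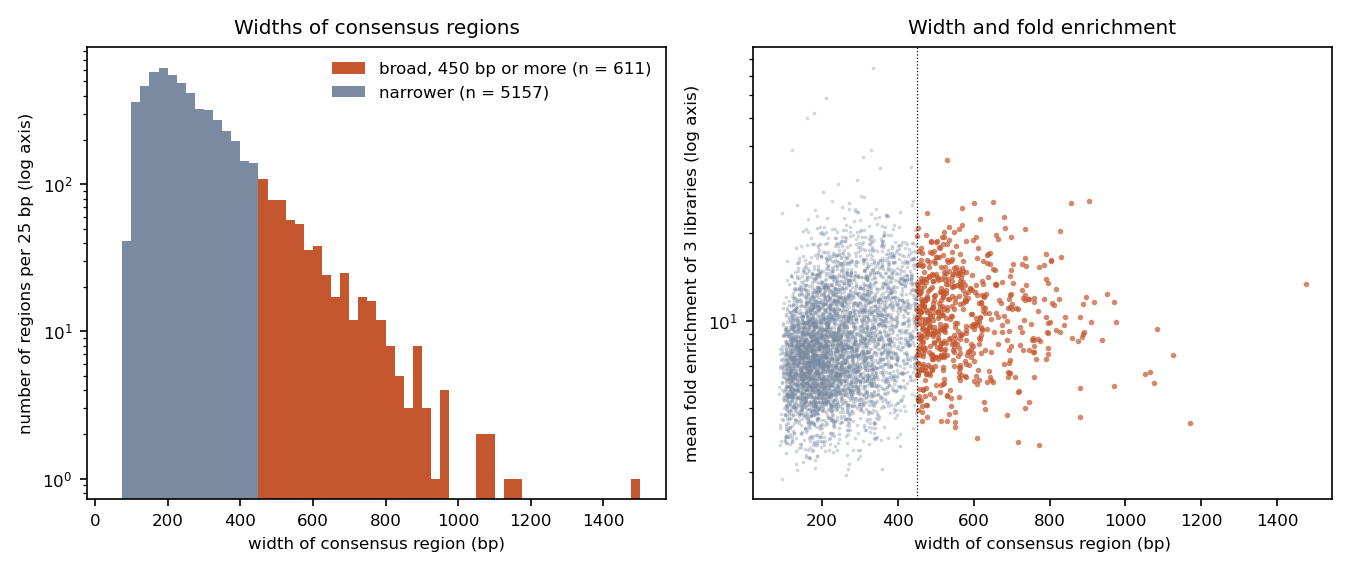
The left panel plots the number of consensus regions per 25 bp of width on a log axis, and the right panel plots each region's mean fold enrichment over the 3 libraries on a log axis against its width. The 611 broad regions run from 450 to 1475 bp without a gap at 450 bp, and their folds span 3.71 to 35.8, with a Spearman correlation of 0.0401 with width.

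The threshold cut a continuous distribution. The first 10 bp of width from the threshold upwards held 45 regions, and the last 10 bp below it held 62. Just inside, at 450 bp, lay regions 801 bp from dve on 2R (fold 12.8 ± 0.591), in twi on 2R (13.3 ± 1.57) and inside ome on 3L (10.9 ± 1.19; SD, n = 3). Just outside, 1 bp below it, lay regions in Ziz on 2L (13.6 ± 1.61), 10897 bp from CG43245 on 3L (11.97 ± 1.95) and 356 bp from CG8034 on X (17.2 ± 1.87). Folds on the 2 sides of the threshold overlapped.

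Broad regions ranged from low to high fold enrichment. Fold enrichment is the authors' value at a peak's summit, a linear ratio over the background that the caller estimated, and a region's fold is the mean over libraries of its highest peak. The median fold of the 611 was 10.2, with quartiles of 7.91 and 13.2, against 8.01 with quartiles of 6.29 and 10.6 for narrower regions. By library the medians were 9.97, 10.3 and 10.2 at broad regions and 7.65, 8.25 and 8.14 at narrower ones. The within-library percentile of fold, averaged over libraries, was 90 or more at 135 broad (22.1%) and 565 narrower regions (10.96%), and under 25 at 23 broad (3.76%) and 549 narrower ones (10.6%). Across the 611 regions, which are not independent replicates and share their libraries, Spearman's correlation of width with fold was 0.0401, and across narrower regions it was 0.260.

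The widest consensus region of all lay outside genes, 2321 bp from Rilpl, at X:1398697-1400171. It measured 1475 bp and had folds of 13.4, 13.4 and 13.2 in replicates 1 to 3, with 3, 1 and 2 peaks. Its libraries spanned 1396, 1260 and 1394 bp from first to last peak edge, gaps between peaks included. Bases covered by all 3 libraries made up 65.2% of its width. Other members of the 15 widest included a region inside mam on 2R (969 bp, fold 11.6 ± 0.586), which encodes a coactivator of Notch, and one 558 bp from disco on X (952 bp, 12.4 ± 1.19), a zinc finger gene. In the mam region the libraries spanned 934, 963 and 962 bp, with 1 peak each. A region inside tou on 2R was 937 bp wide (8.61 ± 0.467), and one centred 266 bp from a boundary of CG12581 on 3R was 974 bp wide (9.94 ± 0.585; SD, n = 3). One exception among the 15 widest was a region of 916 bp inside Pde8 on 2R, where the libraries spanned 224, 897 and 829 bp and replicate 1 lacked most of the width. Another was a region of 969 bp on Y, 3269 bp from Su(Ste):CR40820, where only 36.3% of the bases were covered by all 3 libraries.

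**Figure D2:**
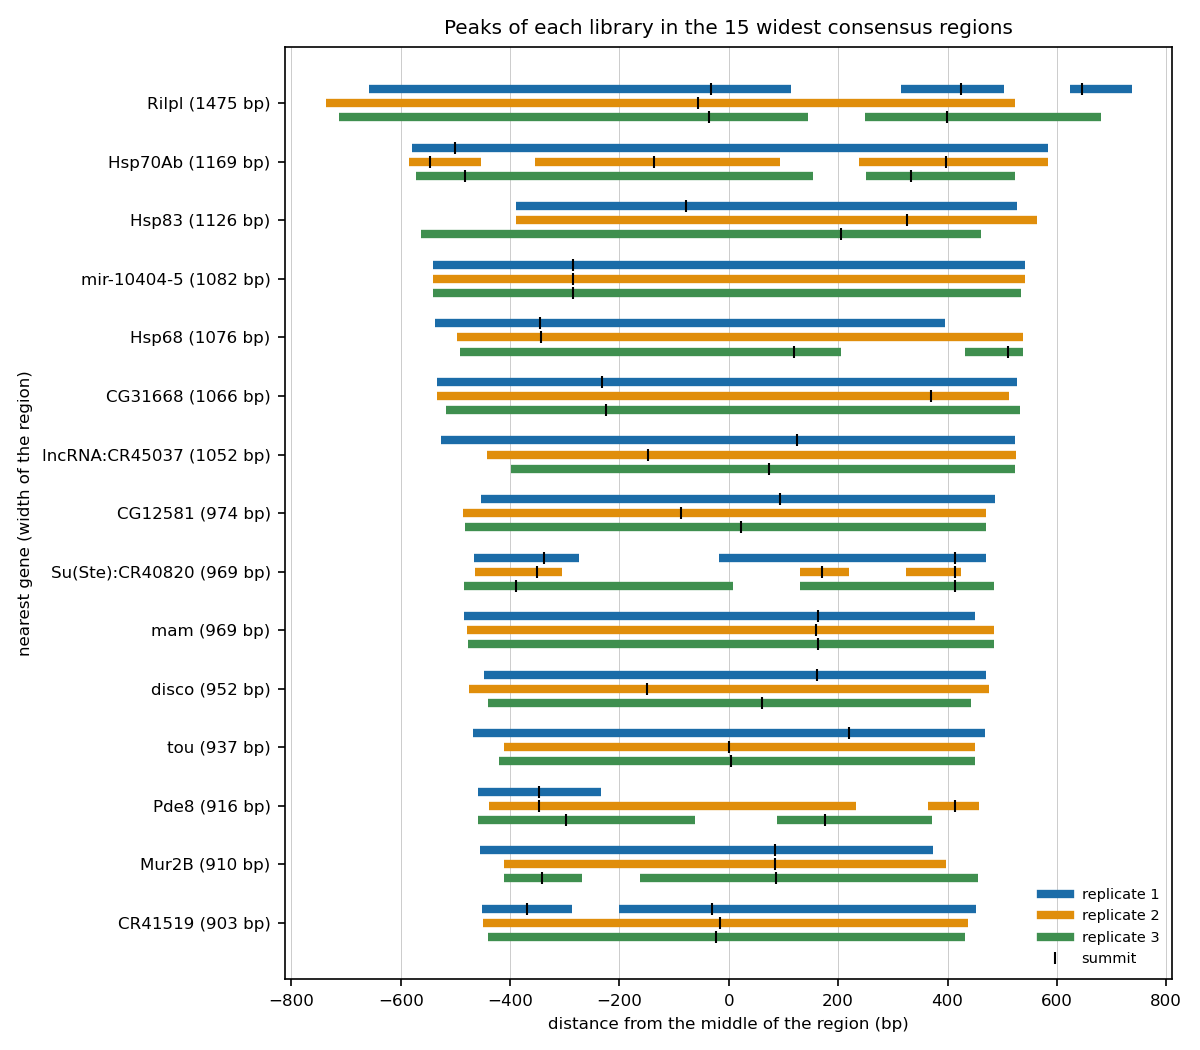
Each row shows 1 of the 15 widest consensus regions, named by its nearest gene, with the peaks of replicates 1 to 3 as bars and their summits as ticks, by distance in bp from the middle of the region. In most rows the 3 bars run over nearly the same stretch; in the row of Pde8 replicate 1 spans 224 bp of 916, and in the row of Su(Ste):CR40820 every library has 2 or 3 separate peaks.

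Heat shock genes held 3 of the 5 widest regions, with mean folds below the median of 10.2 of all broad regions. Their percentiles of fold were 10.9 at Hsp70Ab, 58.5 at Hsp83 and 38.2 at Hsp68. Heat shock genes encode chaperones and are transcribed strongly after heat or other stress. The Hsp70 copies are nearly identical in sequence, and whether reads mapped to several places were kept is not given in the sources used here, so signal cannot be assigned to 1 copy. A region over Hsp70Ab at 3R:11959589-11960757 was 1169 bp wide and had folds of 3.95, 5.14 and 4.22. A region over Hsp83, which encodes the fly HSP90, at 3L:3195611-3196736 was 1126 bp wide, with folds of 8.16, 7.01 and 7.72. A region over Hsp68, a relative of Hsp70, at 3R:24055175-24056250 was 1076 bp wide, with folds of 6.21, 5.96 and 6.09. All 3 were centred inside the gene, 893, 735 and 618 bp from its nearer end at Hsp70Ab, Hsp83 and Hsp68, and each library spanned at least 917 bp there.

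Of 19 heat shock genes 15 had a consensus region and 6 a broad one. Over all protein-coding genes 461 of 13946 (3.31%) had a broad region in the gene or its 1000 bp flanks, and of the 3333 with any consensus region 13.8% did. The other heat shock members were at Hsp70Aa (773 bp, fold 3.71 ± 0.240), Hsp70Bc (464 bp, 4.51 ± 0.329) and Hsp67Ba (646 bp, 6.23 ± 0.110; SD, n = 3), the last centred 708 bp outside the gene and over asRNA:CR43481. The region in Hsp70Aa had the lowest percentile of the 611, at 3.005, and that over Hsp70Ab was among the 5 lowest, at 10.9. Median width of the 6 was 924.5 bp, against 543 bp over all broad regions, and their median fold was 5.30 against 10.2. All 3 libraries went through the dissociation at 37 °C, and discs without it were not analysed here. Without replicate 3, 5 of the 19 genes had a broad region.

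Of the 10 broad regions with the highest percentile of fold, 7 lay in or within 1000 bp of a gene and 3 lay far outside genes. Highest was a region of 529 bp inside kl-5 on Y, a dynein gene of sperm, with folds of 35.3, 35.4 and 36.7. A region centred 216 bp outside Cad99C on 3R, a cadherin gene, was 856 bp wide with folds of 25.5, 25.9 and 25.3. At hry on 3L (hairy, a repressor of the bHLH class), a region at 3L:8675364-8676014 centred 100 bp outside the gene had 24.1, 29.0 and 24.1. These were close between libraries, with replicate 2 highest at hry. A region of 600 bp inside sr on 3R, which encodes the tendon cell factor Stripe, had 25.8, 25.8 and 25.0, and each library spanned 598 or 599 bp there. A region of 569 bp centred 142 bp outside grn on 3R, a GATA factor gene, had 24.7, 26.0 and 22.9. Next came Oatp74D (22.8 ± 1.10), which encodes an importer of ecdysone, and Sgs3 (22.5 ± 2.03; SD, n = 3), a salivary glue gene. Another 3 of the 10 highest lay outside genes, 96980 bp from CR41519 on 2L (25.8 ± 1.30), 18743 bp from CR41379 on 2R (23.5 ± 1.57) and 55375 bp from lncRNA:CR40469 on X (21.4 ± 1.39). Here too it is not given whether reads mapped to several places were kept.

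**Figure D3:**
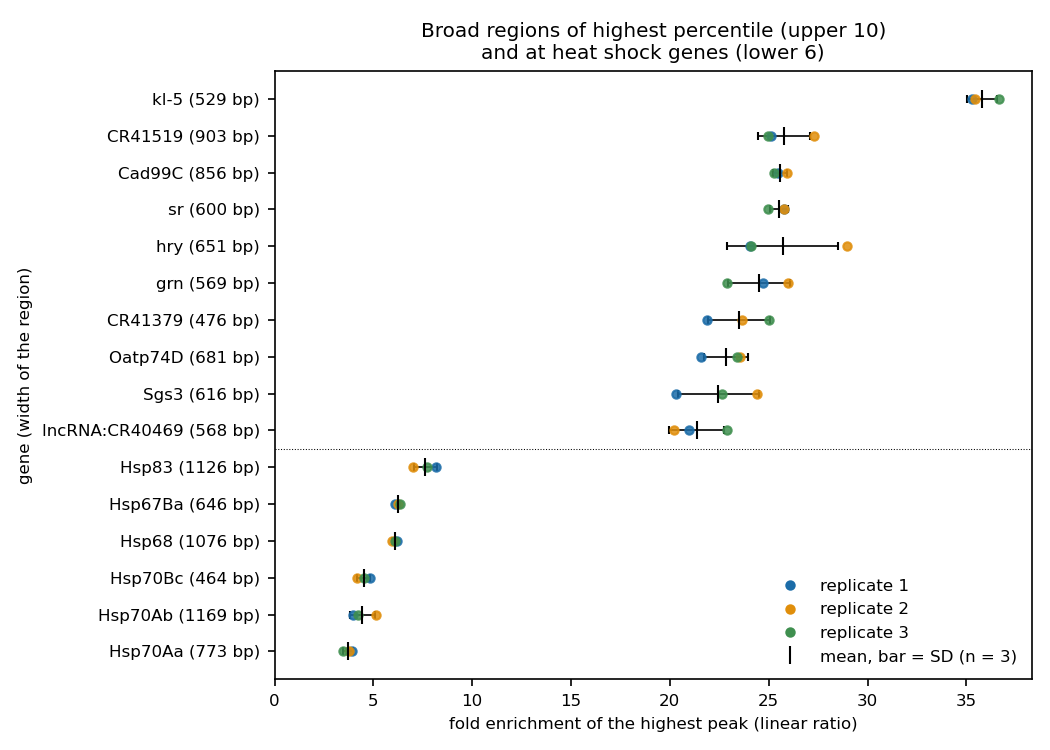
Each row is 1 broad region named by its nearest or listed gene, and points give the fold enrichment of its highest peak in replicates 1 to 3, with the mean and SD (n = 3). The upper 10 rows, of highest percentile, lie between 20.2 and 36.7, and the lower 6 rows, at heat shock genes, lie between 3.45 and 8.16.

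Centres of broad regions lay less often near the ends of genes, and more often inside and between genes, than those of narrower regions. A gene boundary is either end of a gene in the RefSeq table, since strand was not used. Within 1000 bp of one were the centres of 238 broad (39.0%) and 2554 narrower regions (49.5%). Another 255 (41.7%) lay farther inside a gene and 118 (19.3%) outside genes, against 37.1% and 13.4% of narrower regions. By overlap the order was not the same. A gene boundary fell within 134 broad (21.9%) and 1027 narrower regions (19.9%), which was not tested. Read by class, broad regions were 8.52% of the consensus regions near a boundary, 11.8% of those inside genes and 14.6% of those outside. Read in the library left out, the strongest summit lay near a boundary in 38.4%, 39.4% and 38.02% of broad regions and 49.3%, 49.3% and 49.5% of narrower ones in replicates 1, 2 and 3. The difference of -10.7 ± 0.824 percentage points (SD, n = 3) was negative in 3 of 3 libraries (exact sign-flip permutation test, 2-sided, p = 0.25, the smallest possible). Median widths of broad regions in these classes were 549.5 bp near boundaries, 535 bp inside and 549.5 bp outside genes. Another consensus region lay within 10 kb of 78.4% of broad and 79.9% of narrower regions, a comparison that was not tested.

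**Figure D4:**
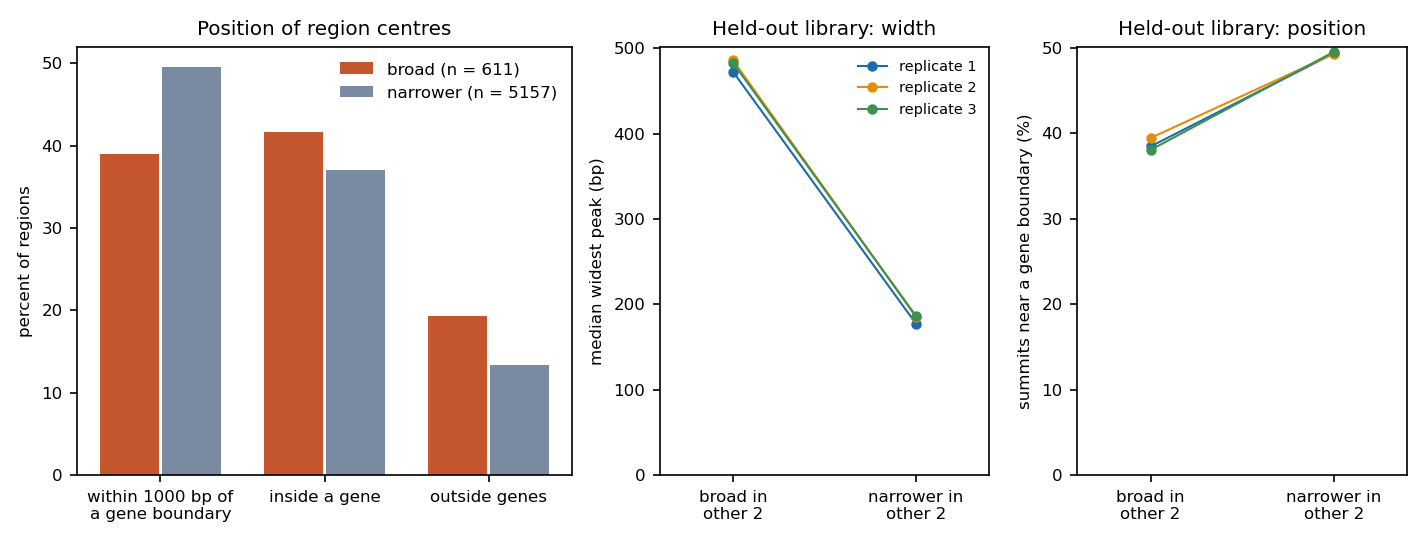
The left panel gives the percent of region centres in each position class for the 611 broad and 5157 narrower regions. The middle and right panels give, for each replicate left out in turn, the median widest peak in bp and the percent of strongest summits within 1000 bp of a gene boundary, at regions broad and narrower in the other 2 libraries; the 3 lines of each panel run nearly parallel.

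A cluster of broad regions lay on chromosome 4 at higher coordinates than Cadps, in a stretch with no nearer gene. Between positions 1287155 and 1344302 of chromosome 4, 7 of 8 consensus regions were broad, and they lay 15739 to 72080 bp from Cadps. Folds at the region of 4:1318681-1319201 were 19.4, 23.3 and 18.0, the highest of the cluster. At 4:1306188-1306688 they were 15.03, 18.1 and 16.5, and at 4:1343550-1344302, where the libraries differed most, 8.24, 11.8 and 5.62. The single narrower region among them was 209 bp wide. Chromosome 4 held 11 broad of 54 consensus regions (20.4%), against 8.71% on X and 5.13% on Y, and from 10.6% to 11.3% on the arms of chromosomes 2 and 3. Outside that cluster, the remaining 4 were at Asator and zfh2, among 8 consensus regions within 39.5 kb. All 11 thus lay in these stretches, so the share of 20.4% does not describe the rest of chromosome 4. Over the whole genome 38 broad regions (6.22%) and 169 narrower ones (3.28%) lay over 10 kb from any gene, a difference that was not tested. Of the consensus regions that far from genes, 12 of 40 on 2R, 10 of 45 on 3L and 8 of 56 on X were broad. On 4 it was 7 of 8, on 2L 1 of 14, on 3R 0 of 33 and on Y 0 of 11. The median fold of the 38 was 11.5, against 6.80 for the narrower ones.

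Genes with a broad region were long, and some held several. Median gene length was 14.97 kb for protein-coding genes with a broad region, against 5.17 kb for those with narrower regions alone and 1.82 kb for those without a consensus region. Of the 461 genes, 401 had 1 broad region and 43 had 2. jing on 2R, a zinc finger gene, held 6 broad among 18 regions, of 469 to 770 bp and fold 6.93 to 12.8. tara on 3R, a transcriptional coregulator gene, held 5 among 12. All 5 lay within 15.4 kb, where only 6 consensus regions were found, with widths of 467 to 729 bp and fold 5.74 to 12.02. ec on X, which encodes a ubiquitin protease, held 4 among 6, of 456 to 527 bp. hth on 3R, the homeodomain partner of Yorkie, held 4 among 21, and Tet, spen, osa, shn, Bicra, mtgo and CG33158 held 3 each. Mur2B on X held 5 among 14. The 3 at br are counted there too, because the annotated span of Mur2B runs over br, and CG1677 and lncRNA:CR44357 likewise share 3 regions.

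The ecdysone response list, genes of the steroid pathway that times moults and metamorphosis, had a broad region at 10 of its 17 genes. Of the 100 consensus regions in or near these genes, 17 (17.0%) were broad, where 10.6% of all regions and 9.54% of those at protein-coding genes were. Of the 17 genes 16 had a consensus region. Over all protein-coding genes 3.31% had a broad region, and of those with any consensus region 13.8% did. Median gene length was 39.9 kb on the list, against 2.16 kb for all protein-coding genes. Eip74EF, an ETS factor gene on 3L, held 5 broad among 13 regions. The widest, at 3L:17590428-17591163, measured 736 bp with folds of 19.8, 23.2 and 19.3. The next, at 3L:17611744-17612471, measured 728 bp with folds of 16.0, 16.9 and 14.1, and 579 bp at 3L:17563575-17564153 had 12.7, 15.8 and 15.7. Replicate 1 was lowest at the last of these and replicate 3 at the other two, so no library was low throughout.

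EcR, the ecdysone receptor gene on 2R, held 2 broad regions among 14. One of 890 bp had folds of 11.7, 8.28 and 7.43 and 2 peaks in every library, and one of 824 bp had 11.5, 10.4 and 13.8. At br, the Broad complex gene on X, regions of 888, 620 and 615 bp had folds of 9.02 ± 0.502, 11.5 ± 1.57 and 8.29 ± 0.623 (SD, n = 3). The first of these was centred 482 bp outside br. Nuclear receptor genes followed, with Hr39 (651 bp, 15.02 ± 3.03), Eip75B (570 bp, 15.2 ± 1.36), Hr3 (571 bp, 11.5 ± 0.616, centred 859 bp outside the gene and over Hdc) and Eip78C (471 bp, 10.1 ± 0.397). The others on the list were Eip63E, a cyclin-dependent kinase gene (496 bp, 17.4 ± 1.24), Blimp-1 (547 bp, 6.95 ± 0.825) and crol (479 bp, 7.04 ± 0.941). At Blimp-1 the libraries spanned 123, 487 and 546 bp, so replicate 1 did not carry the width. With replicate 1, 2 or 3 left out, 8, 8 and 9 of the 17 genes had a broad region. The share of all consensus regions that were broad was then 7.89%, 8.13% and 8.30%, against 10.6% with all 3 libraries. These are shares of regions, so they are no background for the counts of genes.

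Genes of Dpp and related TGF-beta signalling, which pattern and grow the wing along its anterior to posterior axis, had the largest broad share among lists with over 30 regions. Broad regions were 15 of 65 (23.1%), at 11 of 23 genes, and 18 of the 23 had any consensus region. Over all protein-coding genes 3.31% had a broad region. Of all consensus regions 10.6% were broad, and of protein-coding genes with any consensus region 13.8% had a broad one. Median gene length was 7.57 kb on the Dpp list, against 2.16 kb for all protein-coding genes. The ligand gene dpp itself held 2 broad among 3 regions. Its region at 2L:2454525-2455091 had folds of 12.2, 12.5 and 14.6, and the one at 2L:2450843-2451322 had 9.07, 9.10 and 12.2. Replicate 3 was highest at both. The receptor gene tkv held 2 among 10 (499 and 490 bp, folds 6.995 ± 0.510 and 7.37 ± 1.03; SD, n = 3), which lay within 1000 bp of each other. The transducer gene Smox had 1 of 498 bp (15.8 ± 2.44), and shn, which encodes a cofactor of Smad proteins, held 3 of 460 to 620 bp.

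Repressors and targets of the Dpp pathway carried broad regions as well. brk, a repressor silenced by Dpp, had regions of 508 and 484 bp, 404 and 1164 bp outside the gene, with folds of 10.4 ± 0.289 and 10.4 ± 0.552 (SD, n = 3). Both lay over lncRNA:CR44357 and CG1677 and are counted at those genes too. Dad, which encodes the inhibitory Smad, had a region of 735 bp (11.8 ± 0.462) whose libraries spanned 727, 725 and 733 bp. salm, a Dpp target that positions veins, had a region at 2L:11445578-11446472 centred 356 bp outside the gene, 895 bp wide, with folds of 11.2, 12.7 and 12.3. bi, also named optomotor-blind and another target, had 1 broad among 13 regions (576 bp, 11.7 ± 1.36). The ligand gene daw and the protease genes tld and tok completed the 11, and tld and tok shared 1 region (515 bp, 13.0 ± 2.39).

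Of 57 genes that pattern the wing disc, 24 had a broad region, and 34 of 177 regions there (19.2%) were broad. Any consensus region was present at 54 of the 57, and over all protein-coding genes 3.31% had a broad region. Of all consensus regions 10.6% were broad, and of protein-coding genes with any consensus region 13.8% had a broad one. Median gene length was 15.6 kb on the wing disc list, against 2.16 kb for all protein-coding genes. The wing disc list shares dpp, brk, bi, salm and Dad with the Dpp list. sd, which encodes the DNA-binding partner of Yorkie and Vestigial, had a region at X:15811692-15812518 of 827 bp inside the gene, with folds of 20.7, 19.7 and 20.6 and library spans of 827, 810 and 805 bp. At nub, the gene whose driver sequence expressed BunA-HA, a region of 831 bp at 2L:12617814-12618644 had folds of 15.9, 18.0 and 15.8. A second one there, of 817 bp and centred 123 bp outside the gene, had 13.2, 11.2 and 14.3. The mean folds were 16.5 ± 1.23 at the first and 12.9 ± 1.58 at the second (SD, n = 3), with replicate 2 highest at the first and lowest at the second. At tup, which encodes a LIM homeodomain factor of the notum, a region of 682 bp had folds of 19.7, 21.6 and 21.6.

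Selectors of compartments and fates were among the rest. en, the posterior selector gene on 2R, had a region of 543 bp centred 140 bp outside the gene (16.4 ± 2.62), and ap, the dorsal selector gene, one of 558 bp (14.6 ± 2.33). The region at en was 1 of 4 broad ones within 34.1 kb on 2R, of 536 to 579 bp. hh, the ligand gene of posterior cells, had 506 bp (10.7 ± 0.706). Of the Iroquois genes, ara had regions of 617 bp (10.2 ± 2.16) and 504 bp (14.1 ± 2.86), and mirr had 688 bp (9.98 ± 0.584). At ct it was 656 bp (15.005 ± 0.605), at dac 566 bp (14.1 ± 0.422) and at N 581 bp (9.09 ± 0.902; SD, n = 3). zfh2 on chromosome 4, a proximal wing gene, held 3 among 7, of 527 to 728 bp. At bs, the vein and intervein gene on 2R, a region of 642 bp overlapped its antisense gene asRNA:bsAS too and consisted of 2, 3 and 2 peaks (6.38 ± 0.547).

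Of the 35 Hippo pathway genes, the growth-restricting kinase cascade that the series title names, 8 had a broad region, and 13 of 86 regions (15.1%) were broad. Of the 35 genes 24 had any consensus region. Over all protein-coding genes 3.31% had a broad region, and of those with any consensus region 13.8% did. Median gene length was 10.1 kb on the Hippo list, against 2.16 kb for all protein-coding genes. Of the 13 broad regions 4 were at hth, which held 21 of the 86 regions. The core kinase genes hpo and wts and the coactivator gene yki held 1, 3 and 1 consensus regions, none of them broad, a number too small to set against the 10.6% of all regions. Beside sd and the 4 of hth, the broad regions of the list lay at the cadherin genes ds and ft and at regulators of the pathway. ds had 523 bp centred 262 bp outside the gene, with folds of 13.8, 15.2 and 13.9, and 602 bp inside it (7.25 ± 0.480). ft had 597 bp inside the gene (9.73 ± 1.05), where the libraries spanned 596, 371 and 462 bp. Fbxl7, a ubiquitin ligase gene that acts on Fat signalling, had 691 bp centred 727 bp outside the gene (11.1 ± 0.489). The polarity gene sdt had 592 bp (10.6 ± 0.867; SD, n = 3).

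Tgi, which encodes a repressor that binds Scalloped in place of Yorkie, held 2 broad among 6 regions. The one at 3L:13499472-13500267 was 796 bp wide with folds of 13.5, 12.9 and 14.1 and library spans of 767, 777 and 784 bp. The other, of 563 bp, varied more, with 7.37, 9.93 and 5.91. ex, an upstream regulator and target, had 464 bp inside the gene (9.40 ± 0.845; SD, n = 3). Tgi and ex are on the list of Yorkie targets too. On that list 6 of 23 genes had a broad region and 8 of 76 regions (10.5%) were broad, a share near that of all regions. The others there were dally (553 bp, 15.3 ± 0.363), a glypican gene, the growth gene Myc (535 bp, 11.9 ± 1.88), the caspase inhibitor gene Diap1 (523 bp, 7.52 ± 0.505) and the Notch ligand gene Ser. At Myc the libraries spanned 532, 530 and 117 bp, so replicate 3 did not carry the width. Both regions of Ser were broad, of 580 bp (11.7 ± 2.69) and 520 bp (18.4 ± 3.49).

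bun itself held 15 consensus regions, of which 1 was broad. It lay at 2L:12507660-12508146 inside bun, overlapped CG43051 and snoRNA:CG43051-a as well, and measured 487 bp. Its folds were 20.5, 16.4 and 19.4, in the percentile of 97.1. The libraries spanned 387, 373 and 481 bp, so replicate 3 alone reached 450 bp, and without it the region was not broad. Madm had no consensus region.

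Lists that act on chromatin and on Wingless and Notch signals had intermediate shares. Polycomb and trithorax genes had broad regions at 8 of 26, and 16 of 97 regions (16.5%) were broad, against 10.6% of all regions. Of these 16 broad regions 6 were at jing. Median gene length was 10.3 kb on the Polycomb and trithorax list, against 2.16 kb for all protein-coding genes. Over all protein-coding genes 3.31% had a broad region, and of those with any consensus region 13.8% did. ph-d on X had 838 bp centred 164 bp outside the gene, with folds of 10.5, 9.31 and 9.22, next to its paralog ph-p (511 bp, 5.70 ± 0.511). The GAGA factor genes Trl and psq had 718 bp (5.68 ± 0.542) and 525 bp (15.3 ± 1.14), and the pioneer factor gene grh had 631 bp (11.1 ± 1.16; SD, n = 3). Of Wingless genes 5 of 26 had one and 8 of 68 regions (11.8%) were broad. The receptor gene fz2 had 879 bp at 3L:19171600-19172478 with folds of 10.3, 9.43 and 11.1, and the feedback gene nkd had 699 and 693 bp. Of Notch genes 5 of 24 had one, with 7 of 61 regions (11.5%) broad. The shares of regions on the Wingless and Notch lists were near the 10.6% of all regions. At E(spl)mbeta-HLH, a Notch target, a region of 716 bp had a low fold (3.83 ± 0.371), and it was 1 of 4 broad regions within 18.6 kb of the E(spl) complex on 3R. The widest of those 4 measured 1052 bp (6.53 ± 0.503) and lay 626 bp from lncRNA:CR45037.

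In 5 further lists the broad share of regions was below 10.6%. EGFR pathway genes had 3 broad of 87 regions (3.45%), at the ligand gene spi, the feedback inhibitor gene aos and the ETS factor gene pnt. The region of aos is counted at CG33158 too, whose span overlaps it. Genes of JNK, JAK-STAT and apoptosis had 2 of 52 (3.85%), at Diap1 and Stat92E, and cell cycle genes 2 of 40 (5%), at stg and near Rbf. stg, which encodes the Cdc25 phosphatase, had 885 bp centred 123 bp outside the gene, with folds of 8.26, 9.09 and 9.09. Hox genes had 1 of 32 (3.12%), in Abd-B (457 bp, 17.3 ± 0.138), which was not broad without replicate 3. Insulin and TOR genes had 3 of 35 (8.57%), a share near that of all regions, at crol, Pdk1 and foxo. Hedgehog genes, at 4 of 33 (12.1%), were near that share too, with broad regions at boi, en, dally and hh.

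Cytoplasmic ribosomal protein genes had no broad region. Of 92 such genes 26 had a consensus region, and of their 31 regions none was broad, where 10.6% of all regions were. Median width of the 31 was 161 bp, against 234 bp for regions at all protein-coding genes. Chemosensory receptor genes had 0 of 11 and cuticular protein genes 1 of 5, at Cpr62Ba, both too few regions to read a share from. Genes of the ribosomal, chemosensory and cuticular lists are short, with median lengths of 1.31, 1.69 and 0.983 kb in that order. No list was tested against the others, since its members were counted with results known and its genes differ in length and number of regions.

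Among markers of cell types that a wing disc can hold, 2 of 4 tracheal and 1 of 6 myoblast genes had a broad region. trh had regions of 599 bp (19.0 ± 1.36) and 576 bp (12.4 ± 2.85), and vvl 658 bp (19.8 ± 3.26; SD, n = 3). twi, a myoblast factor gene, held 3 among 9 across an annotated span of 63.0 kb that covers other genes. Of 6 markers of disc epithelium 3 had one, namely sd, nub and ap, with 4 broad of 13 regions, where 3.31% of all protein-coding genes and 13.8% of those with any consensus region had one. Haemocyte markers held 1 consensus region and neuron markers 2, none of them broad, too few to read a share from. A peak list does not say in which cells the DNA was tagged.

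**Figure D5:**
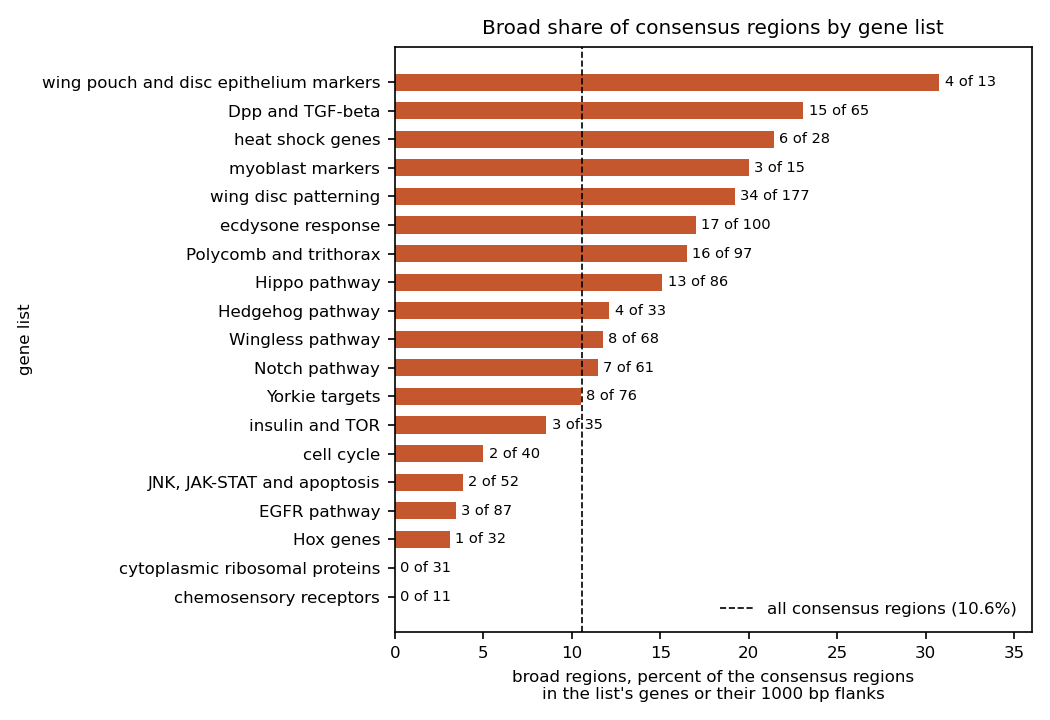
Bars give the percent of consensus regions in or within 1000 bp of a list's genes that were broad, with the counts beside them, for lists with 10 or more regions; the dashed line marks 10.6%, the share of all consensus regions. Wing disc epithelium markers (4 of 13), Dpp and TGF-beta (15 of 65) and heat shock genes (6 of 28) stand highest, and ribosomal proteins (0 of 31) and chemosensory receptors (0 of 11) stand at 0.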

How the data were processed

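Anti-HA CUT&Tag was done on wing discs of 1 group of 3 libraries. The authors deposited 1 list of peaks per library on dm6, and peak names carry a single library's name. Per the submitters' processing notes the tools included Trim Galore, Bowtie2, Bowtie and MACS2. The sources used here give no versions of these, no fragment filter and no treatment of duplicates or of reads mapped to several places. The deposited lists give a score, a fold enrichment as a linear ratio, a −log10 p-value, a −log10 q-value and positions. All deposited peaks have a −log10 q-value of 2.00 or more. Coordinates are 1-based.

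Peaks were merged with Python 3.11.15 and pandas 2.3.3, and checked on simulated peaks. Genes came from the RefSeq table of Release 6 plus ISO1 MT (17807 genes on the main chromosomes), which gives no strand or exons; exon, intron and UTR are not stated, and no sequence was used here. A region was counted at every gene whose span or 1000 bp flanks it overlapped. Gene lists (24, with 736 genes; 10 names matched no single gene) and members were chosen with earlier results of these data known. Regions named were the 15 widest, the 10 of highest percentile, those nearest the threshold, members at listed genes and genes with 3 or more; other regions were named after their values were seen. The single test is a sign-flip permutation test over held-out libraries. Alternatives changed width, merging, q-value, libraries, chromosomes, windows and flanks.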

Additional observations from a re-analysis of the deposited data

Results flagged for a closer look

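Sequence outside the main chromosomes was used in no comparison. There, on unplaced scaffolds and the mitochondrial genome, 146 of 617 consensus regions were 450 bp or more wide. On the main chromosomes 611 of 5768 (10.6%) were, a difference that was not tested. The 146 had a median width of 607 bp and a median fold of 9.25, and the widest measured 1951 bp.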

How the results depend on the processing

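The number of broad regions ranged from 425 to 896 over 10 alternatives, and the 72 to 119 listed genes with one stayed within 1.5 times the 85 found. The share centred within 1000 bp of a gene boundary, 39.0% as reported, was 28.97% with windows of 500 bp and 48.4% with 2000 bp, 39.7% and 38.6% at widths of 400 and 500 bp or more, 39.1% on merging peaks up to 100 bp apart, 38.7% at −log10 q of 5 or more, 39.6% without chromosomes 4 and Y, and 37.95% to 39.6% with 1 replicate left out. Each of these shares differed from the reported one by more than 0.0945 percentage points. That value is the SD between libraries of another measure, the percent of strongest summits within 1000 bp of a gene boundary. It was read at the same broad regions in each library, so it does not measure how far the reported share varies between libraries. Flanks of 5000 bp gave 860 protein-coding genes, against 461. Median fold, 10.2 as reported, was 9.93 on merging peaks up to 100 bp apart and 10.3 to 10.4 with 1 replicate left out, and that merging raised the share with 2 or more peaks in every library to 6.64%, against 1.15%; the share was 0.497% on merging at 50 bp or more overlap and 0.577% to 1.17% with 1 replicate left out, lowest without replicate 2. The differences in the library left out kept their direction in all 5 alternatives, at 254 to 336.5 bp for width and 1.85 to 2.64 for fold. No paired analysis was possible because there is 1 group. The number of libraries, 3, limits every exact permutation test to p = 0.25, and without depths no interval for counting error can be given.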
